A study of Mus musculus with 2 samples.

Results

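Inmt, Ces1d, Cdo1, Fmo2, Adh1 and Cyp1b1 encode enzymes that act on small molecules, and were grouped here as metabolic enzymes of lung alveolar fibroblasts. In these data Adh1 and Cyp1b1 were highest in another class, Pi16 fibroblasts, so the group's name does not describe them. The 6 genes were given by name, with earlier results of these data known, and all 6 were found among the 21014 genes of the deposited tables. Their transcripts were followed in single cells of mouse lung fibroblastic stroma (C57Bl/6J), with 1 library for a high fat diet (HFD) and 1 for normal chow (NC). Feeding lasted 16 weeks in both groups. The composition of the diets, the age and sex of the animals and whether cells of several animals were pooled are not given in the sources used here. Droplet-based 10x Genomics libraries were made with a 3′ kit, which reads the end of each transcript. With 1 library per diet no difference has a replicate to check it, and none was tested. Every difference is therefore between these libraries, and every interval covers counting error only.

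Lung fibroblasts carry part of the tissue's capacity to oxidise, methylate and hydrolyse small molecules that arrive by air or blood. Inmt transfers methyl groups from S-adenosylmethionine to indoleamines such as tryptamine and to sulfur and selenium compounds. Ces1d is a carboxylesterase of the endoplasmic reticulum that hydrolyses ester drugs and stored neutral lipid. Cdo1 oxidises cysteine to cysteine sulfinate, the entry to taurine and sulfate. Fmo2 is the flavin-containing monooxygenase known from the lung of many mammals, and oxygenates nitrogen and sulfur atoms. Adh1 oxidises alcohols, retinol among them. Cyp1b1 is a cytochrome P450 that acts on polycyclic aromatic hydrocarbons, oestradiol and retinoids, and is a known target of the aryl hydrocarbon receptor.

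After cells with fewer than 500 detected genes or more than 10% mitochondrial counts were left out, 6089 HFD cells and 8140 NC cells remained, with medians of 10045 and 7524 counts per cell. They were read in the 6 finer classes of the deposited annotation. Asc1 fibroblasts numbered 2847 in HFD and 3640 in NC, SNAT2 fibroblasts 245 and 359, Gas6 fibroblasts 1095 and 2002, Pi16 fibroblasts 796 and 1222, myofibroblasts 510 and 667, and pericytes 596 and 250. The class labelled pericytes carried mainly smooth muscle markers. These summed to 19407 CPM in HFD and 19226 in NC, against 302 and 231 for 5 pericyte markers. CPM is a count scaled by the total counts of the same cells, not of the whole library. Alveolar fibroblast markers were highest in Asc1 fibroblasts, at a summed 7894 CPM in HFD and 5360 in NC. These 7 markers include Slc7a10, the gene of Asc-1, whose name the class bears, so this sum is no independent check of the label. Over the pooled fibroblasts, epithelial markers summed to 32.7 CPM in HFD and 24.1 in NC, endothelial ones to 0.467 and 1.04 and immune ones to 30.4 and 43.9. Of these, Epcam, Sftpc, Pecam1 and Ptprc were at 0 in every class. Only 30.2% of deposited SNAT2 cells in HFD and 36.3% in NC passed the filter, and their median depth was 4009 and 3037 counts. The libraries shared 17 cell barcodes.

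Across the classes, Inmt and Cdo1 were highest in Asc1 fibroblasts in both libraries. Ces1d and Fmo2 were highest in Asc1 and SNAT2 fibroblasts, whose intervals overlapped in both libraries. Adh1 and Cyp1b1 were highest in Pi16 fibroblasts, the class with the highest adventitial marker sum (1961 CPM in HFD and 2276 in NC). That sum was 115 and 163 CPM in Asc1, 426 and 616 in SNAT2 and 416 and 703 in Gas6 fibroblasts, and 464 and 521 in myofibroblasts. The 6 adventitial markers include Pi16, whose name the class bears, so the sum is no independent check of the label. The deposited classes were assigned to these same cells, so levels by class are a description. Levels are CPM of the summed counts of a class, with 95% Poisson intervals on effective counts, that is, counts divided by a factor for their extra spread (4.85 in HFD and 3.98 in NC).

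**Figure D1:**
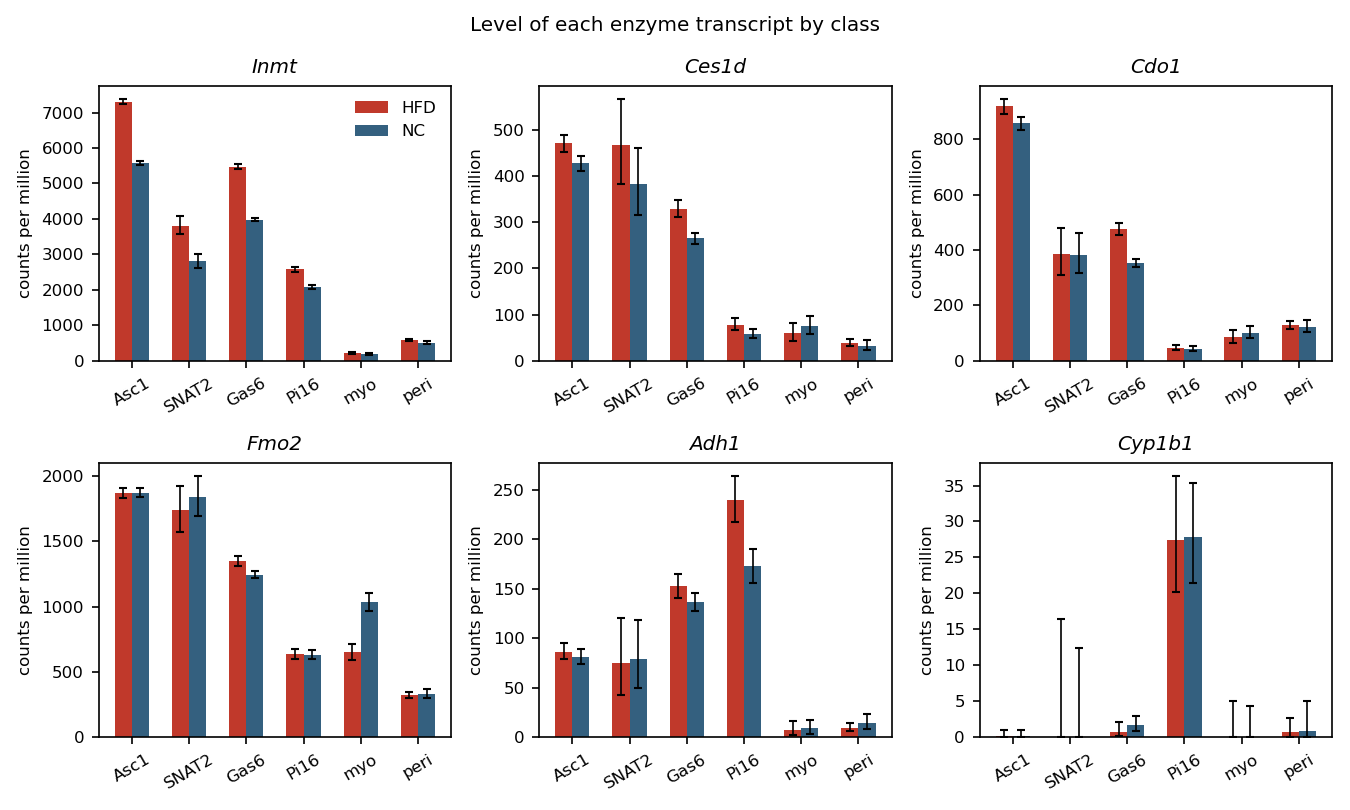
Level of each enzyme transcript (vertical axes, CPM, each from 0) in the 6 cell classes, with HFD in red to the left of NC in blue. Bars are summed levels of 1 library per diet, and error bars are 95% Poisson intervals on effective counts. Inmt and Cdo1 stand highest in Asc1 fibroblasts, Ces1d and Fmo2 in Asc1 and SNAT2 fibroblasts with overlapping intervals, and Adh1 and Cyp1b1 in Pi16 fibroblasts.

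Inmt, the methyltransferase, had a count in nearly every Asc1 and Gas6 cell, though not only there. The share of cells with a count was 89.0% in HFD and 83.3% in NC in SNAT2 fibroblasts. It was 92.0% and 87.4% in Pi16 fibroblasts and 41.4% and 40.4% in pericytes. Asc1 fibroblasts were at 7304 CPM in HFD and 5577 in NC, and 99.8% and 99.4% of those cells had a count. Gas6 fibroblasts followed at 5473 and 3978 CPM, SNAT2 fibroblasts at 3813 and 2814, and Pi16 fibroblasts at 2576 and 2092. Pericytes, at 597 and 504 CPM, and myofibroblasts, at 216 and 200.05, were lowest. The pericyte level in HFD was 1020.2 CPM under a stricter choice of cells (those with 1000 genes or more and mitochondrial counts of 5% or less) and 364 CPM without the 5% of cells with the highest totals, and in NC these were 626 and 320.3 CPM. The intervals of neighbouring classes in this order did not overlap in either library, and the order was the same on both diets. Among single Asc1 cells the 10th percentile, median and 90th percentile were 3021, 6842 and 11972 CPM in HFD and 1987, 5214 and 9721 CPM in NC. Each of these percentiles was thus higher in the HFD library. In the class labelled pericytes a few cells held much of the signal, with 20.9% of Inmt counts in the top 10 cells of HFD and 40.7% in those of NC.

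Inmt was higher in HFD in Asc1, SNAT2, Gas6 and Pi16 fibroblasts and in pericytes, and myofibroblasts gave no clear direction. In the pooled fibroblasts (all classes but pericytes) its level was 5497 CPM in HFD and 4085 in NC, an HFD over NC ratio of 1.35 (interval 1.33 to 1.36). The ratio was 1.38 (1.35 to 1.40) in Gas6, 1.36 (1.23 to 1.49) in SNAT2, 1.31 (1.29 to 1.33) in Asc1 and 1.23 (1.18 to 1.28) in Pi16 fibroblasts. It was 1.19 (1.08 to 1.31) in pericytes and 1.08 (0.862 to 1.35) in myofibroblasts. The ratio was thus above 1 in 6 of 6 classes, with the interval above 1 in 5 of them. Without the 10 cells with the most Inmt counts in each library it was 0.821 in myofibroblasts and 1.55 in pericytes. Over all measured genes the interval lay above 1 for 13.9% in Asc1, 9.5% in SNAT2, 15.2% in Gas6 and 10.6% in Pi16 fibroblasts, 11.1% in myofibroblasts and 13.5% in pericytes. The alveolar marker sum was also higher in HFD, at 5595 CPM against 3761 in NC in the pooled fibroblasts, a ratio of 1.49. Its ratio was 1.47 in Asc1, 1.51 in SNAT2 and 1.43 in Gas6 fibroblasts. A sum is weighted toward its most abundant genes, so it does not show that each marker differed. Tcf21, which is among them, was at 766 CPM in HFD and 659 in NC in Asc1 and at 365 and 369 CPM in SNAT2 fibroblasts. The part of those markers' own difference in the result was not tested.

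The genes whose levels over the 12 sums of library and class were most like Inmt were Sh3bp5, Tmem119 and Tcf21 (Pearson r of 0.99, 0.99 and 0.98 on log2(CPM + 1), among 4159 genes). The 12 points come from only 2 libraries, so r is a description. Tcf21, a basic helix-loop-helix transcription factor of the lung mesenchyme, was at 766 CPM in HFD and 659 in NC in Asc1 fibroblasts and at 32.7 and 30.9 CPM in myofibroblasts. Factors of that class recognise E-boxes, and an E-box core (CAGCTG) lies in the Inmt promoter. Whether Tcf21 acts there was not tested, and E-box forms other than CAGCTG and CACGTG were not searched. The sequence is shown because Inmt separated all 6 classes. Taken from RefSeq, it covers 250 bases before and 30 bases from the transcription start (GRCm38.p6, chr6:55174961-55175240, minus strand), with motif matches in capitals:
Inmt: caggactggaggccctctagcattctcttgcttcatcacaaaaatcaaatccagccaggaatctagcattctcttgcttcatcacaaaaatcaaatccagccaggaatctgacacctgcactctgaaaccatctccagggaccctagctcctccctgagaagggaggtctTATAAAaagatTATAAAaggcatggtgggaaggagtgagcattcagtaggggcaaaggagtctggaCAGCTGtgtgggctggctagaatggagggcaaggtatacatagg
The letters TATAAA, the TATA box core, begin 80 and 69 bases before the start, and CAGCTG 14 bases before it. Of 27025 promoter windows of this length, 13.7% hold TATAAA and 14.7% hold CAGCTG on either strand. A match is a stretch of letters and was not tested as a binding site.

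Ces1d, the carboxylesterase, was high in Asc1, SNAT2 and Gas6 fibroblasts and several times lower elsewhere. It was at 471 CPM in HFD and 427 in NC in Asc1 fibroblasts, at 468 and 383 in SNAT2 fibroblasts and at 329 and 265 in Gas6 fibroblasts. Pi16 fibroblasts (78.4 and 58.6 CPM), myofibroblasts (60.3 and 75.8) and pericytes (39.0 and 32.2) were low. Intervals of Asc1 and SNAT2 fibroblasts overlapped in both libraries, as did those of Pi16 fibroblasts and myofibroblasts. A count was found in 57.5% of Asc1 cells in HFD and 51.4% in NC, so many cells of the class had none at this depth.

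Ces1d was higher in HFD in the pooled fibroblasts, at 340.4 CPM against 288 in NC (ratio 1.18, 1.13 to 1.23). The ratio was 1.34 (1.05 to 1.70) in Pi16, 1.24 (1.16 to 1.33) in Gas6 and 1.10 (1.04 to 1.16) in Asc1 fibroblasts. Intervals included 1 in SNAT2 fibroblasts (1.22, 0.927 to 1.61), pericytes (1.21, 0.821 to 1.82) and myofibroblasts (0.795, 0.529 to 1.18). The pericyte value rests on few cells, since 10 of the 25 NC pericytes with a count held 81.0% of its counts. Without the 10 cells with the most counts in each library that ratio was 4.05. Without the cells with the highest totals the pericyte level was 26.4 CPM in HFD and 5.31 CPM in NC. In SNAT2 fibroblasts the stricter cell filter, which left 18 HFD and 23 NC cells, gave a ratio of 2.14, at 615 CPM in HFD and 288 in NC, which put SNAT2 above Asc1 fibroblasts (472 CPM) in HFD. Trf, Abcd2 and Prelp had the patterns most like Ces1d (r of 0.99, 0.99 and 0.98). Of its close family members, Ces1f was at 0.554 CPM in HFD and 0.0916 in NC and Ces1g at 0.0865 and 0.778, and 1.77% of the 50-base windows at the 3′ end of Ces1d also occur in these.

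Cdo1, the cysteine dioxygenase, had the largest step from Asc1 fibroblasts to the next class among Inmt, Ces1d, Cdo1 and Fmo2, 1.94 times in HFD and 2.24 times in NC. It was at 919 CPM in HFD and 858 in NC in Asc1 fibroblasts, against 475 and 354 in Gas6 fibroblasts and 388 and 383 in SNAT2 fibroblasts. Pericytes were at 129 and 124 CPM, myofibroblasts at 86.2 and 102 and Pi16 fibroblasts at 47.0 and 43.4. The Asc1 level was 19.5 times the Pi16 level in HFD and 19.8 times in NC. The class lowest in Cdo1 was thus the one highest in Adh1 and Cyp1b1.

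The ratio of Cdo1 in Gas6 fibroblasts was 1.34 (1.26 to 1.43), against 1.07 (1.03 to 1.11) in Asc1 fibroblasts, and the difference between the classes was not tested. Markers in Gas6 fibroblasts differed too, with alveolar markers summing to 5128 CPM in HFD and 3574 in NC, adventitial ones to 416 and 703 and smooth muscle ones to 133 and 228. Their part in the Gas6 values of Cdo1 and Ces1d was not tested. The pooled level was 581 CPM in HFD and 484 in NC (ratio 1.20, 1.16 to 1.24). Intervals included 1 in Pi16 fibroblasts (1.08), pericytes (1.04), SNAT2 fibroblasts (1.01) and myofibroblasts (0.845). With the stricter filter the SNAT2 value was 0.472, on the 18 HFD and 23 NC cells left. The patterns most like Cdo1 were those of Fam210b, Emp2 and Ncald (r of 0.96, 0.95 and 0.95).

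Genes beside Cdo1 in the cysteine route differed in both directions. Csad, which decarboxylates cysteine sulfinate toward taurine, was at 58.05 CPM in HFD and 48.3 in NC in the pooled fibroblasts (ratio 1.20, 1.08 to 1.33). Slc6a6, the taurine transporter, was at 253 and 169.7 CPM (1.49, 1.42 to 1.57). Its ratio was above 1 with its interval in each class, from 1.32 (1.23 to 1.42) in Asc1 to 1.65 (1.51 to 1.81) in Gas6 fibroblasts. Ado, which makes hypotaurine from cysteamine, was at 20.6 CPM in HFD and 24.8 in NC (0.834, 0.709 to 0.979). Of the glutathione branch, Gclc, a subunit of the enzyme that commits cysteine to glutathione, was at 14.5 and 24.3 CPM (0.599, 0.498 to 0.717). Slc3a2, a subunit of amino acid exchangers that include the cystine carrier, was at 173 and 207 CPM (0.836, 0.791 to 0.884). Of 19 other measured genes of cysteine, taurine and sulfide metabolism, 0 were at least 1.5-fold higher and 1, Gclc, was lower. Over all measured genes these shares were 5.45% and 4.75%. The list's median log2 ratio was −0.08, so the values named here do not describe it as a whole.

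Fmo2, the flavin monooxygenase, was found in a large share of cells in every class. It was at 1872 CPM in HFD and 1870.2 in NC in Asc1 fibroblasts, at 1740.0 and 1842 in SNAT2 fibroblasts and at 1348 and 1243 in Gas6 fibroblasts. Intervals of Asc1 and SNAT2 fibroblasts overlapped in both libraries, and with the stricter filter SNAT2 fibroblasts of NC were at 2496 CPM and Asc1 fibroblasts at 1952. Pi16 fibroblasts were at 640.1 and 633 CPM and pericytes at 322 and 335. Even in pericytes 56.4% of HFD cells and 56.0% of NC cells had a count. Outside myofibroblasts the libraries were close, with ratios of 1.001 (0.974 to 1.03) in Asc1, 1.01 (0.935 to 1.09) in Pi16 and 0.945 (0.827 to 1.08) in SNAT2 fibroblasts and 0.961 (0.8502 to 1.09) in pericytes. The Gas6 ratio was 1.08 (1.05 to 1.12) and the pooled ratio 1.04 (1.02 to 1.06). The pooled ratio was below 1, at 0.943 with classes weighted equally and 0.997 without the Asc1 and SNAT2 classes.

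Myofibroblasts were the exception. Fmo2 was at 649.6 CPM (592 to 711) in HFD and 1036.5 CPM (969 to 1108) in NC, a ratio of 0.627 (0.559 to 0.702). The median cell was at 359 CPM in HFD and 631 in NC, and the 90th percentile at 1668 and 2727 CPM. With each cell reduced to 2000 counts, a count was found in 48.6% of myofibroblasts in HFD (interval 44.2 to 53.1%) and in 59.8% in NC (55.99 to 63.6%). The difference was thus seen in the share of cells and in the level, and over 8 alternatives the ratio stayed between 0.605 and 0.651. Among members and classes with at least 50 effective counts it was the 1 value past 1.5-fold, in a class where 7.94% of 4031 measured genes were that far lower and 7.62% that far higher. The shares lower and higher by 1.5-fold were 5.62% and 4.94% in Asc1, 8.35% and 7.52% in SNAT2, 5.91% and 6.08% in Gas6 and 5.88% and 5.7% in Pi16 fibroblasts, and 6.77% and 11.4% in pericytes. It was also the 1 interval of those below 1, where that held for 9.75% of genes in myofibroblasts, 14.1% in Asc1, 8.35% in SNAT2, 13.8% in Gas6 and 10.6% in Pi16 fibroblasts and 10.4% in pericytes. In myofibroblasts the alveolar marker sum was 232 CPM in HFD and 217 in NC, the myofibroblast sum 10110 and 8044, the smooth muscle sum 1067 and 1369 and the immune sum 152 and 43.1. Their part in the result was not tested. Myofibroblasts of NC had Fmo2 above Pi16 fibroblasts with separate intervals, while in HFD the intervals of these classes overlapped. Iigp1, F2r and Robo2 were the genes most like Fmo2 in pattern (r of 0.97 each), and among the enzymes it was Ces1d (0.95).

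**Figure D2:**
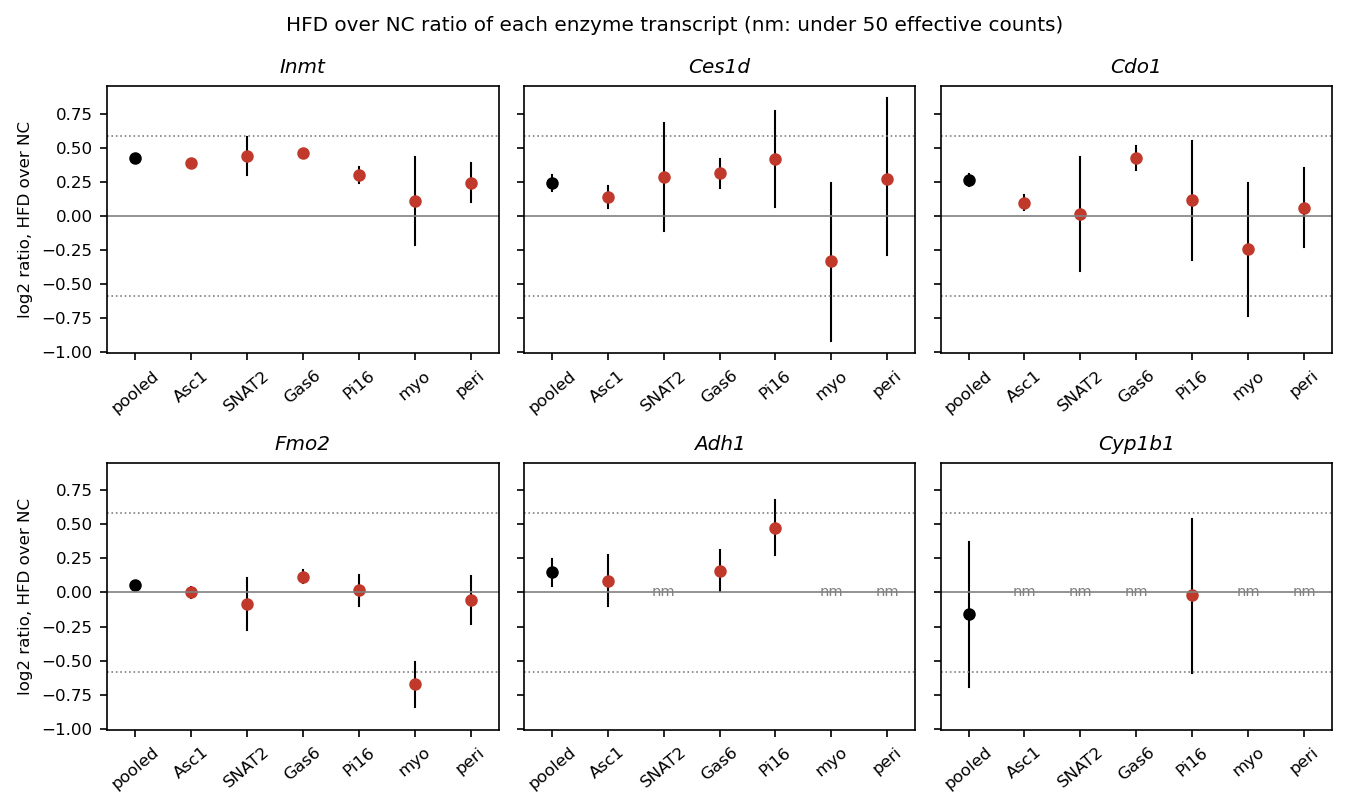
HFD over NC ratio of each enzyme transcript on a log2 axis, in the pooled fibroblasts (black) and in each class (red), with 95% intervals on effective counts as vertical lines and the 1.5-fold limits dotted. Values above 0 are higher in HFD. Inmt lies above 0 in all 6 classes, with an interval that reaches below 0 in myofibroblasts, and Fmo2 in myofibroblasts is the 1 point beyond a dotted line.

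Adh1, the alcohol dehydrogenase, was highest where Cdo1 was lowest. It was at 239.9 CPM in HFD and 172 in NC in Pi16 fibroblasts, against 152 and 136 in Gas6, 86.6 and 81.5 in Asc1 and 74.6 and 78.8 in SNAT2 fibroblasts. Pericytes (9.68 and 14.3 CPM) and myofibroblasts (7.04 and 8.92 CPM) were near the bottom, with 42 and 25 pericytes and 10 and 15 myofibroblasts carrying a count. Pi16, Gas6 and Asc1 fibroblasts had separate intervals in both libraries, and the Asc1 and SNAT2 intervals overlapped. Gas6 fibroblasts, with more counts in all, held the largest share of Adh1 counts, 39.9% in HFD and 49.4% in NC, against 27.4% and 21.7% in Pi16 fibroblasts.

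The diets differed in Adh1 where it was highest. In Pi16 fibroblasts the ratio was 1.39 (1.21 to 1.60), and at 2000 counts per cell the share of those cells with a count was 29.0% in HFD (25.9 to 32.3%) and 21.6% in NC (19.3 to 24.04%). Ratios were 1.12 (1.01 to 1.24) in Gas6 and 1.06 (0.934 to 1.21) in Asc1 fibroblasts, and 1.11 (1.04 to 1.19) in the pooled fibroblasts at 126 CPM in HFD and 114 in NC. In the other 3 classes both libraries together held under 50 effective counts and gave no ratio. The adventitial marker sum of Pi16 fibroblasts was lower in HFD (ratio 0.862) and their alveolar sum higher, at 1860.2 CPM in HFD and 1341 in NC. Whether these shifts bear on Adh1 was not tested. Gpc3, Nbl1 and Clec3b were most like Adh1 in pattern (r of 0.98, 0.97 and 0.97). Clec3b, a secreted lectin, was at 1397 CPM in HFD and 1787 in NC in Pi16 fibroblasts, so its class pattern was like that of Adh1 while its difference between the diets ran the other way.

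The Adh1 promoter (GRCm38.p6, chr3:138277335-138277614, plus strand) is shown in the same window because it carries the E-box core seen in Inmt, with matches in capitals:
Adh1: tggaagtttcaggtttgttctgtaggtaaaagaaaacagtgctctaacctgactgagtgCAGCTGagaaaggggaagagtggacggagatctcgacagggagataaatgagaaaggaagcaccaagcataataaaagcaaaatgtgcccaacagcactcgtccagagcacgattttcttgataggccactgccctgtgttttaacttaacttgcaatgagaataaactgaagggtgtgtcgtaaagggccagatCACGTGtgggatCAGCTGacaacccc
It holds CAGCTG 191 bases before the start and again from base 17 after it, and CACGTG, a second E-box form found in 6.89% of windows, from base 5. The patterns of Inmt and Adh1 over the 12 sums were correlated on the log scale (r of 0.87), although their highest classes differed. Both were lowest in myofibroblasts and pericytes. No match of these letters or of GCGTG lies in the Fmo2 window searched (chr1:162898729-162899008, minus strand), the more upstream of 2 for that gene. Promoters of Ces1d and Cdo1 were not searched, so whether the E-box core is particular to Inmt and Adh1 was not tested.

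Cyp1b1, the cytochrome P450, was rare and lay mostly in Pi16 fibroblasts, which held 89.2% of its HFD counts and 82.2% of its NC counts. It was at 27.4 CPM in HFD (20.2 to 36.4) and 27.8 CPM in NC (21.5 to 35.4) in that class, where 52 of 796 HFD cells and 69 of 1222 NC cells had a count. The top 10 of these cells held 48.3% of the class's counts in HFD and 44.5% in NC. Gas6 fibroblasts were at 0.722 and 1.73 CPM, pericytes at 0.756 and 0.907, and Asc1 fibroblasts at 0.158 and 0.247, with 1 cell carrying a count in each library. It was at 0 in SNAT2 fibroblasts and myofibroblasts of both libraries, where 3 counts would be 2.76 and 2.54 CPM in SNAT2 fibroblasts and 0.845 and 0.892 CPM in myofibroblasts. The Clopper-Pearson upper bounds of the share of cells with a count were 1.49% in HFD and 1.02% in NC in SNAT2 fibroblasts, and 0.721% and 0.552% in myofibroblasts. Among alveolar Asc1 cells the transcript was thus at the edge of detection on both diets. At 2000 counts per cell, 3.02% of Pi16 cells in HFD and 2.38% in NC had a count, against 0.0351% and 0.0275% of Asc1 cells.

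No difference between the diets was detectable in Cyp1b1 at this depth. The ratio was 0.987 (0.666 to 1.45) in Pi16 fibroblasts and 0.897 (0.619 to 1.29) in the pooled fibroblasts, and both intervals include 1. Ly6c1, Ifi207 and Entpd2 had the patterns most like it (r of 0.94, 0.92 and 0.92), and Ly6c1 is also one of the adventitial markers. Its promoter (GRCm38.p6, chr17:79715032-79715311, minus strand) is shown for the core letters of the element read by the aryl hydrocarbon receptor, GCGTG, in capitals as their complement on the printed strand:
Cyp1b1: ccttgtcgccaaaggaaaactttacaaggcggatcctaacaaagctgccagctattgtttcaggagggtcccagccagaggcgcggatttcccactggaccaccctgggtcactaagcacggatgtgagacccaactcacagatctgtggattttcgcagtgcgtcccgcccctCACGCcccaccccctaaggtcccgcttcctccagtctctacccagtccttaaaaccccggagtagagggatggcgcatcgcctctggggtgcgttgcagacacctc
The match begins 76 bases before the start, and 30.9% of all windows hold these letters on one strand or the other. Ahr, the receptor, was at 3.69 CPM in HFD and 5.05 in NC in the pooled fibroblasts (ratio 0.730, 0.494 to 1.06) and at 7.68 and 7.08 CPM in Pi16 fibroblasts.

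Counted per cell, the number of enzymes found differed more between classes than between diets. The classes were assigned to these same cells, so the comparison is a description. At 2000 counts per cell, 3 or more of the 6 transcripts were found together in 70.4% of Asc1 cells in HFD and 68.6% in NC. The shares were 58.5% and 51.7% in Gas6, 41.98% and 41.9% in SNAT2 and 24.6% and 17.4% in Pi16 fibroblasts. In myofibroblasts they were 2.16% and 2.70% and in pericytes 6.38% and 7.2%. None of the 6 was found in 38.8% of HFD and 28.8% of NC myofibroblasts. At this depth Inmt was found in 14.9% of myofibroblasts in HFD and 15.1% in NC, against 99.5% and 98.5% of Asc1 cells. The part of free RNA in these low shares was not tested.

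**Figure D3:**
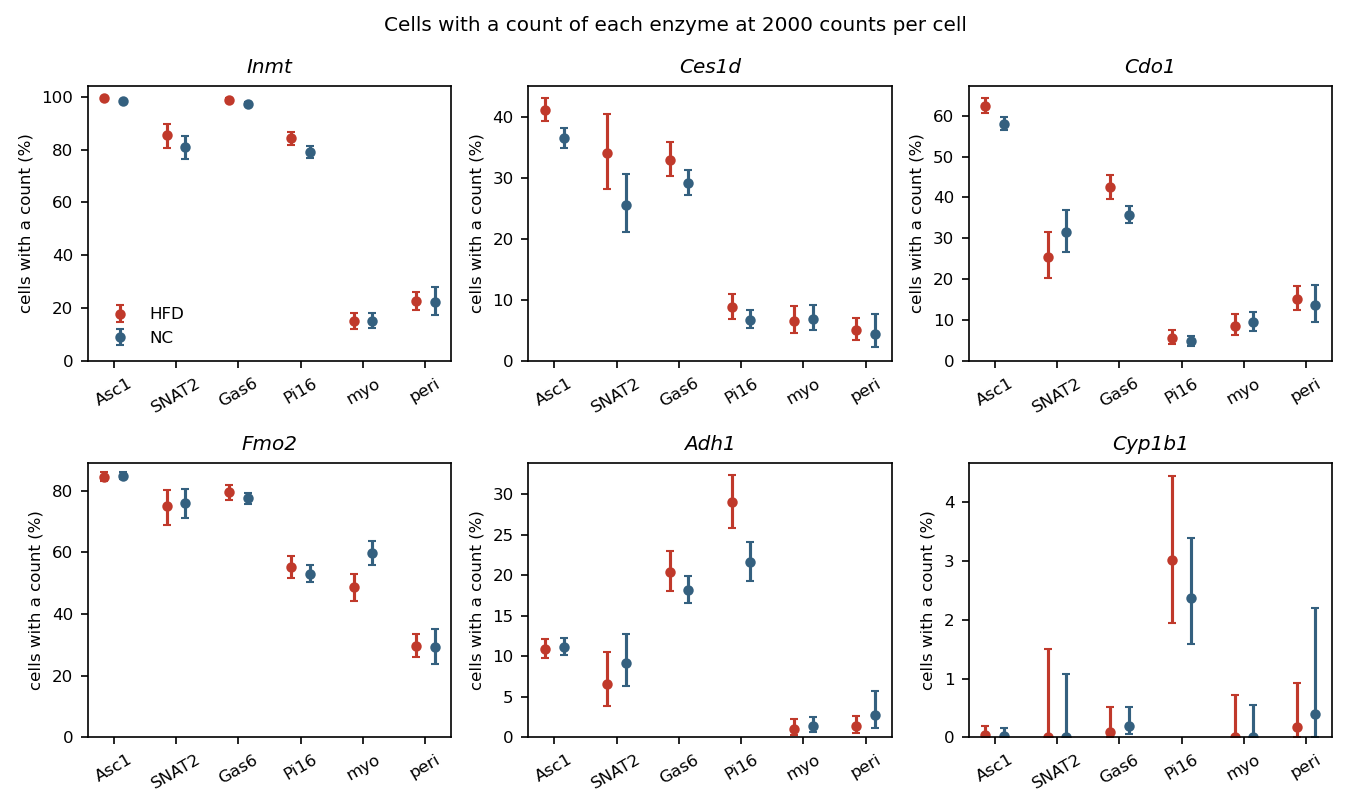
Share of cells with a count of each enzyme (vertical axes, percent) after each cell was reduced to 2000 counts, by class, with HFD in red to the left of NC in blue and exact Clopper-Pearson 95% intervals. Inmt is found in nearly all Asc1 and Gas6 cells, and the Fmo2 share in myofibroblasts is 48.6% in HFD and 59.8% in NC.

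**Figure D4:**
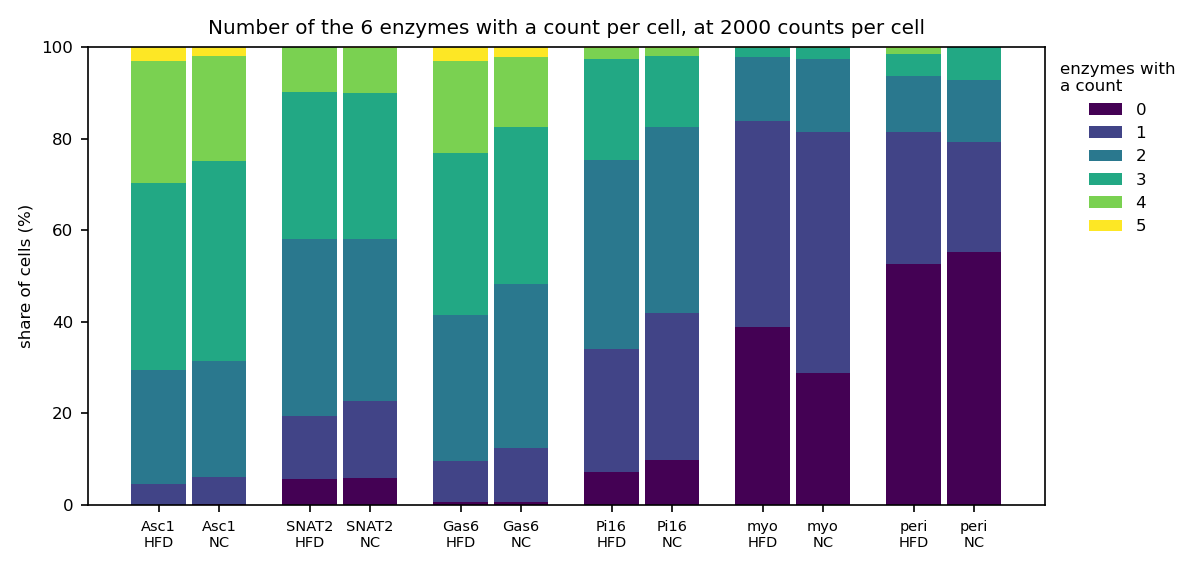
Share of cells (vertical axis, percent) with 0 to 5 of the 6 enzymes at 2000 counts per cell, stacked for each class with HFD to the left of NC. Asc1 and Gas6 fibroblasts mostly hold 2 to 4 of them, and myofibroblasts and pericytes 0 or 1.

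Set against all genes, none of the 6 enzymes was at least 1.5-fold higher or lower in the pooled fibroblasts. Of 13422 measured genes, where measured means 50 effective counts or more in the libraries together, 5.45% were at least 1.5-fold higher in HFD and 4.75% at least 1.5-fold lower. Intervals lay above 1 for 5 of the 6 members, against 19.5% of all measured genes, and below 1 for 0 of the 6, against 16.7%. Fmo2 is among the 5, though its pooled ratio was below 1 in the weightings given above. More counts give narrower intervals, and the members other than Cyp1b1 have many, so these shares are not matched for depth. The median log2 ratio of all measured genes was 0.02.

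The other genes of the enzymes' pathways were read from 11 lists. Of 187 list genes in the tables other than the members, 156 were measured, 6 were at least 1.5-fold higher in HFD and 8 at least 1.5-fold lower. Over all measured genes 5.45% were that far higher and 4.75% that far lower. Their median log2 ratio was 0.0010, and 79 of them had a ratio above 1, against 53.7% of all measured genes. By list, ratios above 1 were found for 0 of 8 aryl hydrocarbon receptor genes, 7 of 19 P450 genes and electron donors, 6 of 15 retinoid genes and 8 of 14 alcohol and aldehyde dehydrogenases. The counts were 7 of 17 for methylation, 8 of 19 for cysteine metabolism, 5 of 6 for esterases and lipid hydrolases and 1 of 2 for flavin monooxygenases. They were 16 of 25 for conjugating enzymes, 14 of 21 for the other oxidoreductases and 9 of 19 for transcription factors. Higher were Lrat, Cyp2e1, Cyp2u1, As3mt, Mtrr and Dbp, and lower were Aldh1a2, Aldh1a3, Aldh1l1, Aldh18a1, Rdh10, Cyp51, Gclc and Aoc3.

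Around Adh1, the retinoid genes differed in direction. Lrat, which stores retinol as its ester, was at 170.1 CPM in HFD and 98.6 in NC (ratio 1.72, 1.61 to 1.84). Rdh10, which oxidises retinol to retinal, was at 10.3 and 20.2 CPM (0.510, 0.411 to 0.630). Aldh1a1, a retinal dehydrogenase, was at 488 and 543 CPM (0.897, 0.868 to 0.928), and its relatives Aldh1a2 (2.28 and 3.83 CPM, ratio 0.596) and Aldh1a3 (2.32 and 4.52 CPM, 0.513) were past 1.5-fold lower. Of the 15 measured retinoid genes other than the members, 1 was higher and 3 lower, and of the 14 alcohol and aldehyde dehydrogenases 0 were higher and 4 lower. Over all measured genes 5.45% were higher and 4.75% lower. Aldh1a2 and Aldh1a3 are counted in both lists, so these counts are not separate results. Aldh2, the mitochondrial aldehyde dehydrogenase, was at 484 and 430.4 CPM (1.12, 1.09 to 1.16).

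Around Cyp1b1, the aryl hydrocarbon receptor pathway had 0 of 8 other measured genes past 1.5-fold, against 5.45% of all measured genes higher and 4.75% lower, and a median log2 ratio of −0.22. Its named genes were Nfe2l2 (0.793, 0.740 to 0.848), Ptges3 (0.868, 0.812 to 0.926) and Tiparp (0.924, 0.875 to 0.976), a target of the receptor. Of 19 other P450 genes and electron donors, Cyp2e1 (44.6 CPM in HFD and 27.5 in NC, ratio 1.62, 1.43 to 1.84) and Cyp2u1 (10.2 and 6.68 CPM, 1.53) were higher. Cyp51, the sterol demethylase, was lower (16.1 and 35.1 CPM, 0.459, 0.388 to 0.541). Por, the reductase that feeds electrons to P450 enzymes, was at 189 and 200.3 CPM (0.943, 0.894 to 0.995).

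Around Inmt, 2 of 17 other measured genes of S-adenosylmethionine methylation were higher and 0 lower, against 5.45% and 4.75% of all measured genes, and the median log2 ratio of the list was −0.03. The methyltransferases As3mt (8.62 CPM in HFD and 5.49 in NC, ratio 1.57, 1.17 to 2.10) and Gamt (38.0 and 27.2 CPM, 1.40, 1.22 to 1.60) and the methionine synthase reductase Mtrr (9.22 and 5.997 CPM, 1.54) were above 1. Nnmt, the nicotinamide N-methyltransferase, was at 245 and 272 CPM (0.8997, 0.858 to 0.943). Mat2a, which makes S-adenosylmethionine, was at 486 and 514 CPM (0.946, 0.915 to 0.978).

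Beside Ces1d and Fmo2, few relatives were measured and none passed 1.5-fold. Among esterases and lipid hydrolases were Ces2g (23.2 CPM in HFD and 18.9 in NC, 1.22, 1.04 to 1.44) and the lysosomal lipase Lipa (103.8 and 89.99 CPM, 1.15, 1.07 to 1.25). Fmo5 was at 23.3 and 19.7 CPM (1.18, 1.005 to 1.39) and Fmo1 at 52.2 and 54.2 CPM (0.962, 0.867 to 1.07). In Pi16 fibroblasts Fmo1 was at 81.3 and 70.05 CPM and in Asc1 fibroblasts at 39.8 and 46.1 CPM, the other way round from Fmo2.

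Among 25 conjugating enzymes, 0 passed 1.5-fold, against 5.45% of all measured genes higher and 4.75% lower. The named ones were Ugdh (0.670), Gsta3 (0.838), Gsta4 (0.752) and Gstk1 (1.21). Among 21 other oxidoreductases and hydrolases, Aoc3 was lower (1.37 CPM in HFD and 2.33 in NC), and the named genes were Xdh (0.715), Cbr1 (1.29), Hsd17b11 (1.23) and Akr1b3 (1.21). Of 19 transcription factors linked to control of these enzymes, 1 was higher and 0 lower, to be read beside the same shares of all measured genes. Dbp, a clock output factor, was at 155 CPM in HFD and 100.5 in NC (1.54, 1.44 to 1.65), and Nr1d1, a clock repressor, at 158 and 111 CPM (1.43, 1.34 to 1.52). Nr3c1, the glucocorticoid receptor, had a ratio of 1.35 (1.27 to 1.44) and Cebpd 0.757 (0.744 to 0.770).

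**Figure D5:**
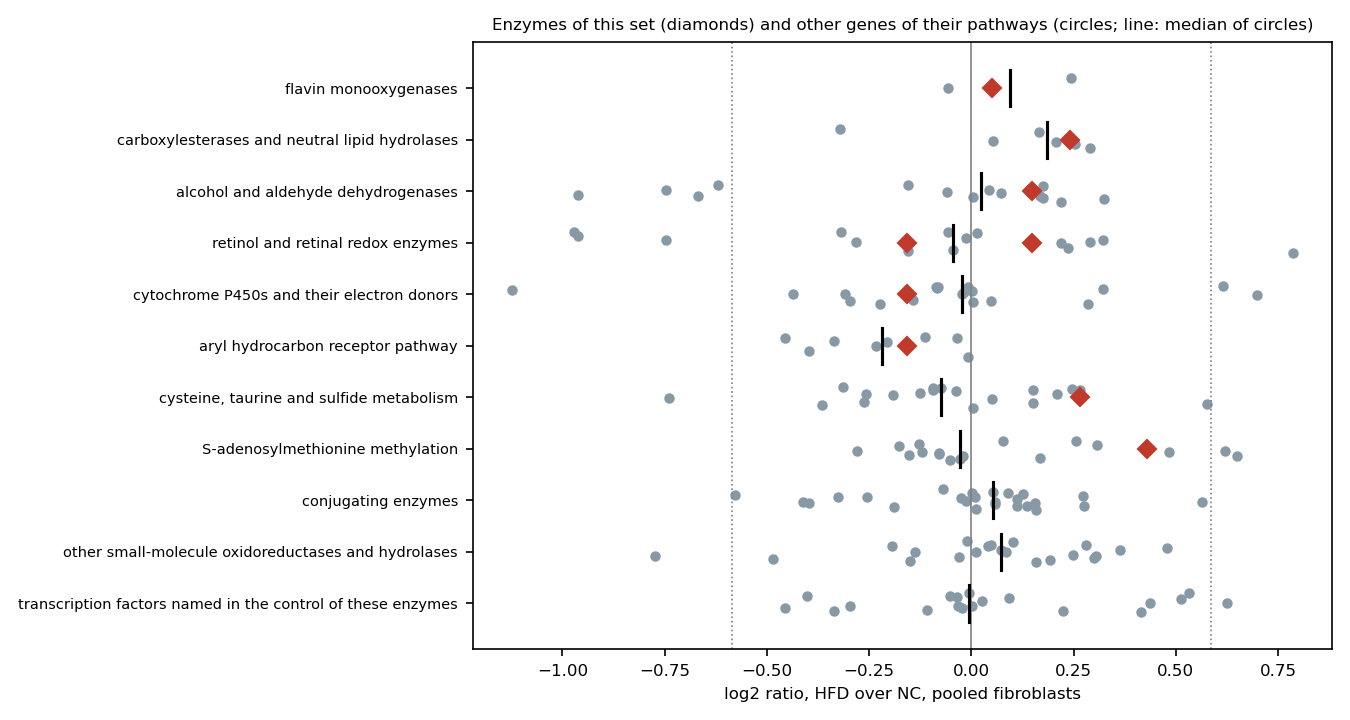
HFD over NC ratio in the pooled fibroblasts (horizontal axis, log2) for the enzymes (red diamonds) and the other measured genes of 11 pathway lists (grey circles, 1 per gene, vertical spread for legibility only), with the median of the circles as a black line and the 1.5-fold limits dotted. All diamonds lie between the dotted lines, and all 8 circles of the aryl hydrocarbon receptor list lie below 0.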

How the data were processed

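The tools and build named in the submitters' processing notes are STAR and mm39. Whether the deposited totals count molecules or reads is not given in the sources used here, and the factor for extra spread was used for this reason. The deposited values are log2(CPM + 1) for each cell, a unit found from the values. Each cell also has a deposited total, which is an estimated count (7.24% of these in HFD and 5.59% in NC were fractional), and a mitochondrial share in percent, per the file headers. Counts were recovered from both, and 98.8% of HFD and 98.96% of NC values came out whole within 0.01. Symbols were found for 20180 identifiers (96.0%).

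Counts were summed per library and deposited finer class. Ratios have exact conditional 95% Poisson intervals on effective counts, and shares have Clopper-Pearson intervals (scipy 1.17.1). The interval code was tested on simulated data. No doublets were removed here. A gene was called higher or lower at 1.5-fold by size. The members and lists were chosen with earlier results of these data known. From each list, up to 4 measured genes with the interval bound farthest from 1 were named by rule, and for likeness the 3 highest correlations. Ado, Slc6a6 by class, Ahr, Fmo1, Por, Nnmt, Mat2a and the list genes past 1.5-fold were also named after their values were seen. Alternatives covered cell filters, depth, scaling (TMM in edgeR 4.0.16, median of ratios), means per cell, class weights and single cells. Promoters and names came from RefSeq and transcripts from GENCODE, on an older build than the files. Chromosomes in that annotation are 6 for Inmt, 8 for Ces1d, 18 for Cdo1, 1 for Fmo2, 3 for Adh1 and 17 for Cyp1b1. Ces1d overlaps an annotated gene (Gm45909) on its own strand and Adh1 one (Gm16559) on the other strand. Neither of these was found by name among the deposited genes. Strand cannot separate reads where Ces1d and Gm45909 overlap. Whether strand was used in counting is not given in the sources used here, so reads of the Adh1 pair cannot be told apart either.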

Additional observations from a re-analysis of the deposited data

Results flagged for a closer look

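The HFD over NC ratio of Fmo2 lay on opposite sides of 1 in 2 classes with neither interval reaching 1. It was 0.627 (0.559 to 0.702) in myofibroblasts, at 649.6 CPM in HFD and 1036.5 CPM in NC, and 1.08 (1.05 to 1.12) in Gas6 fibroblasts, at 1348 CPM in HFD and 1243 CPM in NC. With 1 library per diet the difference between the classes was not tested.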

How the results depend on the processing

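No paired analysis was possible because each diet has 1 library. The pooled Inmt ratio was 1.38 with the stricter cell filter (at least 1000 genes, at most 5% mitochondrial counts), 1.33 without the 5% of cells with the highest totals, 1.32 each with TMM scaling, median-of-ratios scaling, means of per-cell CPM and equal class weights, 1.31 with cells thinned to 2000 counts and 1.27 without the Asc1 and SNAT2 classes. For Cdo1 it was 1.16 with per-cell means, 1.15 thinned and 1.10 with equal weights. For Fmo2 it was 1.06 with the stricter filter, 1.01 with per-cell means, 0.943 with equal weights and 0.997 without the Asc1 and SNAT2 classes, so its pooled direction depends on the mix of classes. For Adh1 it was 1.19 without the Asc1 and SNAT2 classes. Over 10 alternatives the pooled ratio stayed between 1.15 and 1.20 for Ces1d and between 0.709 and 1.06 for Cyp1b1. At 2-fold, 0 list genes were higher and 1 lower, and with a minimum of 20 effective counts 10 were higher. Each class ratio was read under each alternative. In 206 of these cases it moved by less than its counting interval and in 18 by more, most in pericytes and SNAT2 fibroblasts. Larger classes moved too. Inmt in Asc1 fibroblasts was 1.34 with the stricter filter and 1.28 both with per-cell means and thinned. In Gas6 fibroblasts Inmt was 1.35 with TMM scaling. Class levels moved by more than their interval in 41 cases and by less in 130, and shares of cells in 57 and 15 when thinned. In pericytes, Ces1d was 4.97 without the cells of highest totals. Depth limits Cyp1b1 everywhere and Adh1 outside Pi16, Gas6 and Asc1 fibroblasts, and the ratios of Ces1d and Cdo1 had intervals that include 1 in SNAT2 fibroblasts, myofibroblasts and pericytes.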

Other observations

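Within the Pi16 class, Adh1 and Inmt were lower in the cells with a Cyp1b1 count, in both libraries. Adh1 was at 69.7 CPM in HFD (34.7 to 125) and 94.1 CPM in NC (50.5 to 160.0) in these cells. In Pi16 cells without a Cyp1b1 count it was at 257 CPM (232 to 283) and 177 CPM (160.3 to 196), so the NC intervals all but met. A cell without a count may still carry the transcript at this depth. Inmt was at 1338 CPM in HFD and 1531 in NC in the cells with Cyp1b1, against 2698 and 2128 in those without. Fmo2 was at 567 and 496 CPM against 647 and 641, with overlapping intervals in both libraries. Cdo1 was at 55.3 and 44.4 CPM against 46.2 and 43.4, also overlapping in both. Ces1d was at 7.89 and 32.0 CPM against 85.3 and 60.3, with overlapping intervals in NC. Of 3 adventitial genes, Col14a1 was at 771 and 559 CPM with Cyp1b1 and at 427 and 463 CPM without, with overlapping intervals in NC. Pi16 was at 1251 and 678 CPM with and 664 and 622 CPM without, again overlapping in NC. Dpp4 was at 3.95 and 8.88 CPM with and 4.81 and 6.85 CPM without, overlapping in both libraries. Cells with a Cyp1b1 count were fewer (52 in HFD and 69 in NC) and deeper (medians of 14154 and 8042 counts, against 10222 and 7445). The split was made on these values after they were seen, and carries no test.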
